A study of Danio rerio with 18 samples.

Results

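Wild-type GFP-positive cells of zebrafish embryos at 72 hpf (hours post fertilization) were compared with the same sorted fraction at 48 hpf, over all genes. The labels place 2 libraries in each stage, so the comparison uses 4 of the 18 libraries of the series. The embryos carry the wild-type genetic background, were raised under 1 protocol shared by all groups, and were harvested at the long-pec stage (48 hpf) and the protruding-mouth stage (72 hpf). Dissociated embryo cells were separated by fluorescence-activated sorting, and the labels give GFP status without naming the reporter or the cells that its promoter marks. The other 8 GFP-positive libraries (2 of wild type at 24 hpf and 2 of each of the gata5, tbx5 and hand2 genetic backgrounds at 72 hpf) took part in the estimate of spread between replicates and in the filter that set which genes were tested, and not in the comparison itself. Nothing in the labels says that replicates 1 and 2 came from separate pools of embryos, so p-values measure only the spread between these libraries, which may be technical.

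The series is described as a study of cardiomyocytes, the contracting cells of the heart. Over these stages the zebrafish heart already beats, its chamber walls thicken, and cardiomyocytes carry the contractile apparatus of thick and thin filaments. Elsewhere in the embryo the liver starts to secrete plasma proteins, cone photoreceptors of the retina build their light-sensing apparatus, and cartilage of the head and fins is laid down. Xanthophores, the yellow pigment cells of the skin, make pteridine pigments from the purine nucleotide GTP.

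The 4 libraries held 16696417 and 20761818 counts at 48 hpf and 23617376 and 32141901 counts at 72 hpf. Levels below are CPM, the usual depth-scaled counts, adjusted by the TMM method, which corrects for differences in composition, and a library with no count of a gene could have held up to 3 counts, or 0.189, 0.148, 0.126 and 0.0844 CPM in the same order. Such limits cover counting error only. The most abundant gene ID, which has no symbol, took 18.1 to 23.9% of the counts. Mitochondrially encoded genes took 1.45 to 1.62% at 48 hpf and 2.27 to 2.57% at 72 hpf. The deeper 72 hpf libraries showed fewer genes at 3 counts or more, 18506 and 17879, than the 48 hpf libraries, with 20614 and 21073.

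The GFP-positive fraction held cardiac contractile transcripts, and it also held pigment cell transcripts at a higher summed level. No ID carried the symbol vmhc, the ventricular myosin heavy chain, and MYH7 (ENSDARG00000079782) was taken in its place. An upper-case symbol can stand for a paralog, so whether this ID encodes the ventricular chain cannot be told from the symbols. MYH7 stood at 1171 and 835 CPM at 48 hpf and at 259 and 129 CPM at 72 hpf. In the single wild-type GFP-negative library of each stage it stood at 0.369 and 2.51 CPM. The summed level of a cardiac sarcomere list of 36 genes was 9722 and 9364 CPM at 48 hpf and 5483 and 9784 CPM at 72 hpf. The sum in 72 hpf replicate 2 did not reflect MYH7 or the cardiac light chains, which were lowest in that library. MYL7 stood at 266 and 173 against 128 and 38.0 CPM, and cmlc1 at 494 and 340 against 156 and 66.8 CPM. Skeletal muscle genes, given below, were higher in replicate 2, and their part in the sum was not tested. The summed level of a xanthophore list of 26 genes was 49824 and 52817 CPM at 48 hpf and 25425 and 14380 CPM at 72 hpf, against 809 and 648 CPM in the GFP-negative libraries. In such bulk libraries fewer cells of a type and less RNA per cell cannot be told apart.

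The 2 libraries at 72 hpf differed from each other more than the replicates of any other GFP-positive group. Among genes averaging 10 CPM or more in the group, 26.2% of 9917 genes stood over 2-fold apart in the 72 hpf pair and 6.01% over 4-fold apart. At 48 hpf these shares were 5.85 and 0.421% of 9264 genes, and in the other 4 groups they ran from 6.07 to 19.96% and from 0.443 to 3.48%. The log2 levels of the pair had r = 0.738 at 72 hpf and 0.934 at 48 hpf, a description across genes, which are no replicates. At 72 hpf 29 of these genes had no count in one library, 19 of them in replicate 1 and 10 in replicate 2, while at 48 hpf there were 0 such genes. Set against the range of the 48 hpf libraries, 368 of 9750 genes averaging 10 CPM or more over the 4 libraries lay at least 2-fold above it in both 72 hpf libraries, 323 lay 2-fold below it in both, and 38 lay above it in one and below it in the other.

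**Figure D1:**
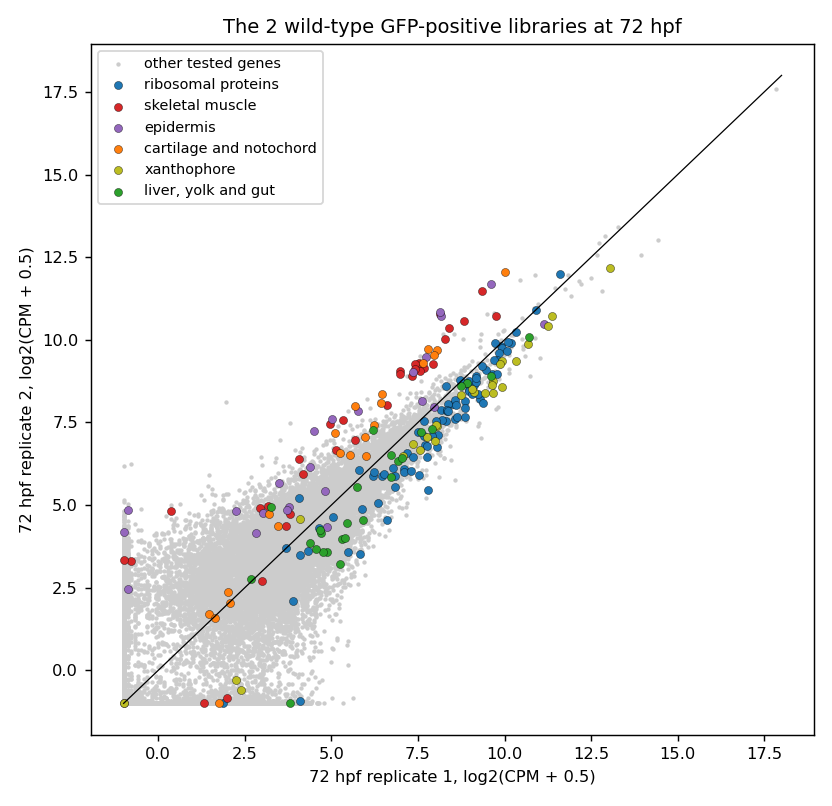
Levels of all tested genes in 72 hpf replicate 1 (x axis) and replicate 2 (y axis), as log2(CPM + 0.5), 1 point per gene, with 6 gene lists coloured and the line of equal levels in black. Epidermis, skeletal muscle and cartilage genes lie mostly above the line (20 of 24, 29 of 32 and 18 of 21 higher in replicate 2), and ribosomal protein, xanthophore and liver genes mostly below it (7 of 84, 1 of 26 and 3 of 26 higher in replicate 2).

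Of 23767 genes tested with edgeR's quasi-likelihood F test, 116 (0.488%) were called at a Benjamini-Hochberg adjusted p under 0.05. Of these, 62 (0.261%) were higher at 72 hpf and 54 (0.227%) were lower. The stages did not overlap in any of the 116, but a call favours genes whose stages lie apart, so this is no separate support. Over all tested genes both 72 hpf libraries lay above both 48 hpf libraries in 17.5% and below them in 23.1%. Without an adjustment 2716 genes had p under 0.05. The smallest called change was 1.71 on the log2 scale among the higher genes and −1.44 among the lower genes, and 11 of the higher genes had no count at 48 hpf and 15 of the lower genes none at 72 hpf. The count of calls rested on single libraries: it was 55 without 48 hpf replicate 2 (46 of them among the 116), 859 without 72 hpf replicate 1 (108 of them), 85 without 48 hpf replicate 1 (60 of them) and 173 without 72 hpf replicate 2 (68 of them). In all 4 of these fits 33 of the 116 genes remained called, 21 higher and 12 lower. The calls also rest on the spread taken from the other groups: with the 4 libraries alone edgeR called 0 genes, with 2582 at an unadjusted p under 0.05, and with the 6 wild-type GFP-positive libraries it called 13, while DESeq2 on the 12 libraries called 1181, among them all 116.

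**Figure D2:**
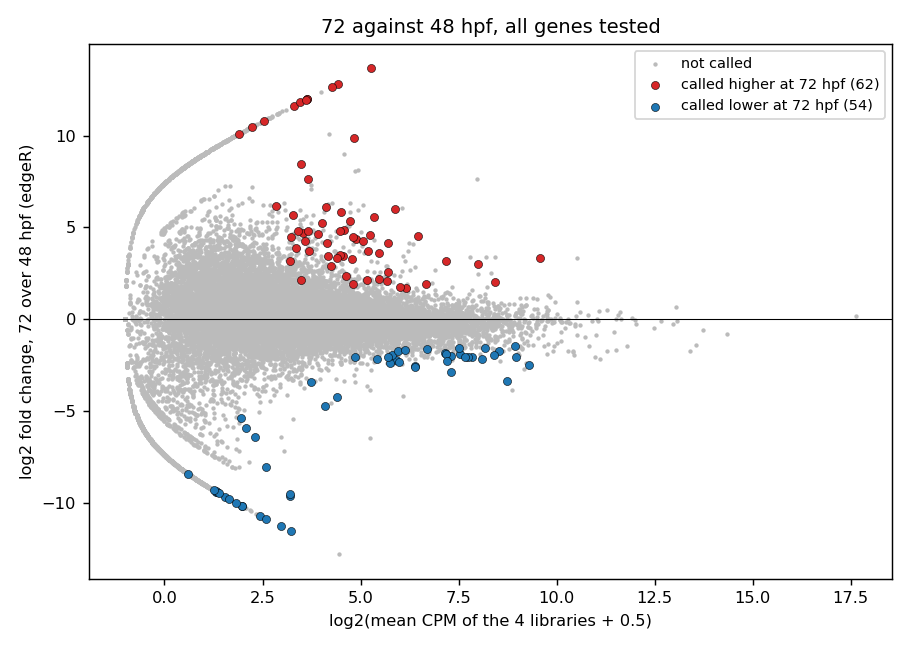
Log2 fold change of 72 over 48 hpf from edgeR (y axis) against log2 of the mean CPM of the 4 libraries plus 0.5 (x axis), 1 point per tested gene. The 62 genes called higher are red and the 54 called lower are blue, and the curved bands at low levels are genes with no count at one of the stages.

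In the values below, a change is the edgeR log2 fold change of 72 over 48 hpf ± SE, with n = 2 against 2. The SE is the absolute change divided by the square root of the F statistic. It thus rests on the spread over all 12 GFP-positive libraries, not on the 4 compared libraries alone. The 72 hpf pair differed more than the pairs of the other groups, so SEs and p-values may understate the spread in this comparison. List counts stand beside those over all 23767 genes tested, 2716 at an unadjusted p under 0.05, 1181 called by DESeq2 and 342 by limma. edgeR called 0.261% of these genes higher and 0.227% lower. The lists were chosen with earlier results of these data known, so list counts are descriptions and no list was tested as a set. Of the 62 genes called higher, 50 were also higher in the GFP-negative library of 72 hpf than in that of 48 hpf, 41 of them over 2-fold, with a median log2 ratio of 2.19. Of the 54 called lower, 28 were also lower there, 13 of them over 2-fold, with a median of −0.02. Over all tested genes 47.4% were higher there, 17.3% over 2-fold, and 48% were lower, 15.3% over 2-fold, so the counts of the genes called lower lay near those of all genes. The GFP-negative fraction has 1 library a stage, so its values carry no test.

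Transcripts of proteins that the liver secretes into plasma formed a large group among the higher genes. Of 26 tested genes in a list for liver, yolk and gut, 9 were called higher and 0 lower, against 0.261% of all genes, with a median log2 fold change of 3.36, where that of all tested genes was 0. Both 72 hpf libraries stood above both 48 hpf libraries in 22 of the 26, against 17.5% of all tested genes. The list was chosen with earlier results of these data known, so these shares describe it and test nothing. The summed level was 704 and 459 CPM at 48 hpf and 4789 and 3386 CPM at 72 hpf, and 166 and 1081 CPM in the GFP-negative libraries of 48 and 72 hpf. Whether liver or yolk cells in the sorted fraction, or RNA from them, had a part in this was not tested.

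The carrier proteins of plasma included some of the highest levels. tfa (ENSDARG00000016771), transferrin, which carries iron, stood at 56.3 and 54.1 CPM at 48 hpf and at 486 and 416 CPM at 72 hpf (3.03 ± 0.30, adjusted p = 0.000286). The 72 hpf libraries lay close together and far above the 48 hpf pair. apoeb, an apolipoprotein E of lipid particles, rose from 189 and 83.0 CPM to 1680 and 1088 CPM (3.35 ± 0.44). apom, another apolipoprotein, had no count in 48 hpf replicate 1, 0.0988 CPM in replicate 2, and 83.9 and 28.2 CPM at 72 hpf (adjusted p = 0.000923). fabp10a, the liver fatty acid-binding protein that marks zebrafish hepatocytes, had no count at 48 hpf and 60.3 and 23.0 CPM at 72 hpf, at least 458-fold higher over the pooled libraries with the limit taken as 3 counts over the group. MTTP, which loads lipid onto apolipoprotein B, went from 1.13 and 0.395 to 41.4 and 46.4 CPM. selenop, selenoprotein P, which carries selenium in plasma, went from 175 and 94.1 to 501 and 606 CPM (2.04 ± 0.33). All 6 had stages that did not overlap. selenop lost its call without 48 hpf replicate 2 (adjusted p = 0.154), and the other 5 were called without any one library. Other members did not pass the test: apoa1b stood at 69.0 and 50.8 against 783 and 476 CPM (3.39 ± 0.79, adjusted p = 0.129), and apoa1a at 110 and 70.4 against 120 and 79.3 CPM (0.15 ± 0.85).

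Clotting, protease inhibitor and complement genes rose in part. A list of 34 tested coagulation and complement genes was written after the called genes had been seen. Of these 11 were called higher and 0 lower, against 0.261% of all genes called higher. In 29 both libraries were above (over all tested genes 17.5%). The list holds genes already known to be called, so these counts cannot support a shared change. serpina1, serpina1l, FGG, FGB, f2 and c3a.1 are also in the liver, yolk and gut list. serpina1 and serpina1l, inhibitors of the alpha-1-antitrypsin family, went from 7.24 and 3.85 to 105 and 90.3 CPM (4.14 ± 0.40) and from 10.5 and 4.35 to 190 and 147 CPM (4.51 ± 0.46). Among the fibrinogen chains, from which clots are built, FGG went from 6.55 and 3.56 to 52.6 and 45.9 CPM and FGB from 3.09 and 0.691 to 43.3 and 21.6 CPM. Both fibrinogen genes were called, while fga, at 2.27 and 0 against 23.1 and 12.1 CPM, was not (3.998 ± 1.31, adjusted p = 0.314). PLG, plasminogen, which dissolves clots, rose from 0.756 and 1.73 to 44.0 and 58.0 CPM (5.34 ± 0.59, adjusted p = 0.00091). f2, prothrombin, rose from 1.45 and 0.247 to 25.6 and 17.4 CPM, and SERPINC1, antithrombin, from 4.28 and 1.53 to 21.9 and 41.7 CPM. Copies of complement component C3, the central protein of the complement cascade, were called in 3 gene IDs, and reads may be split uncertainly between such near copies. c3a.1 stood at 6.30 and 7.11 against 104 and 57.5 CPM, c3a.2 at 0 in both against 22.5 and 23.9 CPM, and c3a.3 at 1.13 and 0.543 against 30.6 and 16.3 CPM. Without 48 hpf replicate 2 the coagulation and complement calls were 6 and the liver, yolk and gut calls 6, and the adjusted p was 0.0542 for FGG, 0.0779 for f2, 0.212 for SERPINC1, 0.212 for c3a.1 and 0.194 for c3a.3. c3a.1 (0.161) and c3a.3 (0.0703) were also lost without 48 hpf replicate 1, and SERPINC1 (0.0523) without 72 hpf replicate 2.

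Enzymes of liver metabolism were called as well, though not as a whole list. PYGL, liver glycogen phosphorylase, which releases glucose units from glycogen, rose from 2.77 and 3.31 to 67.6 and 76.4 CPM (4.56 ± 0.45, adjusted p = 0.000286). PDK2, a kinase that switches off pyruvate dehydrogenase, rose from 3.46 and 3.16 to 68.2 and 57.0 CPM (4.24 ± 0.45). PCK1, the committing enzyme of glucose synthesis, rose from 2.08 and 1.38 to 22.3 and 23.7 CPM (3.74 ± 0.53). In each of these 3 genes the libraries of a stage lay close together, and PCK1 alone lost its call, without 48 hpf replicate 2 (adjusted p = 0.0612). In the GFP-negative libraries PYGL stood at 5.54 and 23.5 CPM, PDK2 at 2.77 and 7.91 CPM, and PCK1 at 0.554 and 0 CPM. A list of 33 tested genes of amino acid breakdown was written after the called genes had been seen. Of these 5 were called higher and 0 lower, against 0.261% of all genes called higher. Both 72 hpf libraries were above in 17 and below in 8 (over all tested genes 17.5 and 23.1%). The list holds genes already known to be called, so these counts cannot support a shared change. HAL, UROC1 and FTCD act in the breakdown of histidine, HPD in that of tyrosine, and uox degrades urate. HPD had no count at 48 hpf and 30.7 and 17.2 CPM at 72 hpf, at least 273-fold higher (adjusted p = 0.00872, or 0.0534 and 0.0833 without either 48 hpf library), and uox went from 0.126 and 0.79 to 31.6 and 34.9 CPM (6.12 ± 0.77). UGT1A1, which conjugates bilirubin, and abcc2, which exports conjugates into bile, were called with adjusted p = 0.0448 and 0.043, and they lost the call without either 48 hpf library or without 72 hpf replicate 2. Genes of the exocrine pancreas were low at both stages: CPB1, a carboxypeptidase, had no count at 48 hpf and 9.19 and 11.9 CPM at 72 hpf (adjusted p = 0.264). Of 13 pancreas genes 8 were above in both libraries (median 4.002), against 17.5% of all tested genes, and edgeR called 0, with 5 higher at an unadjusted p under 0.05, 5 called by DESeq2 and 3 by limma.

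**Figure D3:**
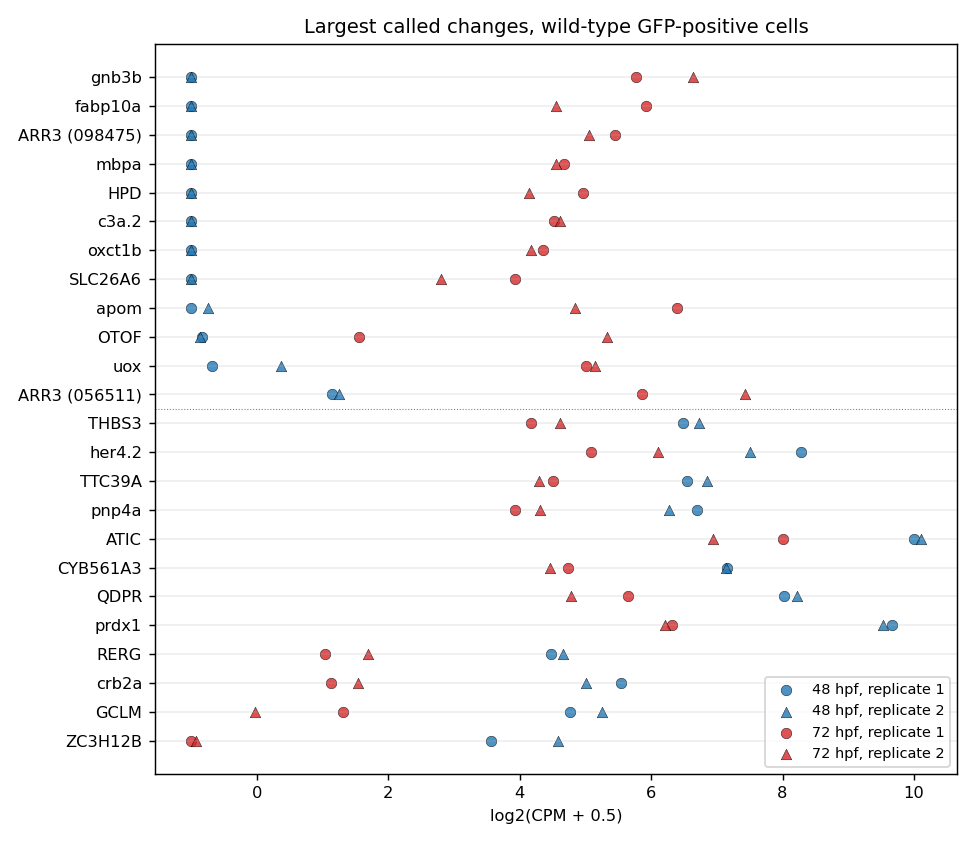
Level of the 12 called genes with the largest rise (above the dotted line) and the 12 with the largest fall (below it) in each library, as log2(CPM + 0.5), for genes with a proper symbol that average 10 CPM or more in the higher stage. Blue marks are 48 hpf and red marks 72 hpf, circles are replicate 1 and triangles replicate 2, and a mark at −1 is a library with no count. Only genes whose stages did not overlap were eligible, so in no row do the colours overlap.

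A set of cone photoreceptor transcripts rose. In cones an opsin absorbs light, transducin passes the signal to a phosphodiesterase, and arrestin ends it. opn1lw2 (ENSDARG00000044861), a long-wavelength opsin, rose from 1.26 and 2.07 to 32.7 and 124 CPM (5.55 ± 0.73, adjusted p = 0.00331). gnb3b, the beta subunit of cone transducin, had no count at 48 hpf and 54.3 and 98.9 CPM at 72 hpf, at least 976-fold higher. GNAT2, the alpha subunit, rose from 3.46 and 1.93 to 29.5 and 81.2 CPM (4.36 ± 0.85, adjusted p = 0.0421), and its call was lost without either 48 hpf library or without 72 hpf replicate 2. Cone arrestin, ARR3, is carried by 2 gene IDs. ENSDARG00000098475 went from 0 in both to 43.3 and 32.6 CPM, at least 445-fold higher, and ENSDARG00000056511 from 1.70 and 1.88 to 57.9 and 171 CPM (5.997 ± 0.85), a call that was lost without either 48 hpf library (adjusted p = 0.158 and 0.219). In 4 of these 5 genes replicate 2 of 72 hpf was above replicate 1. In a list of 28 cone genes written after the called genes had been seen, these 5 were called, against 0.261% of all genes. In it 24 were above in both libraries (over all tested genes 17.5%). PDE6C, the cone phosphodiesterase, stood at 0.63 and 1.14 against 39.3 and 63.3 CPM without passing the test (adjusted p = 0.215). The list holds genes already known to be called, so these counts cannot support a shared change. The same genes were higher in the GFP-negative fraction, where the list summed to 439 CPM at 48 hpf and 2727 CPM at 72 hpf, against 77.8 and 137 and then 517 and 1069 CPM in the GFP-positive libraries. GNAT2 and both ARR3 IDs are also in a list of lens and retina genes, where CRYAA, a lens crystallin, stood at 0 in all 4 libraries. They were its only calls. Against 0.261% of all genes, 3 were called higher and 0 lower of these 26 lens and retina genes. Only 1 of them was called without 48 hpf replicate 2, 4 without 72 hpf replicate 1, and 2 without either other library. The part of retinal cells or their RNA in the sorted fraction was not tested.

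A few matrix, contractile and myelin genes rose. One ID of POSTN (ENSDARG00000043806), periostin, a matrix protein of fibroblasts and heart valves, went from 4.53 and 3.06 to 36.3 and 47.3 CPM (3.46 ± 0.58, adjusted p = 0.0163). Another POSTN ID, ENSDARG00000104267, was far more abundant and did not rise. It stood at 405 and 373 against 313 and 454 CPM, with overlapping stages (−0.02 ± 0.34). COL8A2, a network-forming collagen, went from 2.39 and 2.32 to 44.8 and 61.0 CPM (4.49 ± 0.65), and elnb, an elastin of the outflow tract in zebrafish, from 0.378 and 1.19 to 40.9 and 20.2 CPM (5.26 ± 0.997). All 3 called IDs were also higher in the GFP-negative library of 72 hpf than in that of 48 hpf, POSTN (ENSDARG00000043806) at 27.9 and 182 CPM at 48 and 72 hpf, COL8A2 at 28.0 and 203 CPM, and elnb at 0 and 23.9 CPM. ALDH1A2, which makes retinoic acid and is expressed in epicardium, went from 13.7 and 17.7 to 38.0 and 107 CPM (2.21 ± 0.46), and TPM2, a tropomyosin, from 22.2 and 16.5 to 50.2 and 113 CPM (2.08 ± 0.41). Other genes of the epicardium and fibroblast list went the other way without a call. TCF21 stood at 17.6 and 34.2 against 4.07 and 3.71 CPM, and TBX18 at 49.6 and 106 against 27.3 and 26.4 CPM. WT1 stood at 24.6 and 44.1 against 13.6 and 10.4 CPM. mbpa, myelin basic protein, was at 0 in both 48 hpf libraries and at 25.1 and 23.0 CPM at 72 hpf, at least 287-fold higher, with 0 and 65.3 CPM in the GFP-negative libraries. OTOF, otoferlin of hair cell synapses, stood at 0.063 and 0.0494 CPM at 48 hpf and at 2.43 and 39.9 CPM at 72 hpf, and its call was lost without 72 hpf replicate 2 (adjusted p = 0.121) and without either 48 hpf library (0.149 and 0.229). At an unadjusted p under 0.05, 5 genes of the epicardium and fibroblast list were higher and 2 lower. For the collagens these counts were 13 and 1, and for the atrioventricular canal and outflow list 2 and 5. Against 0.261% of all genes, 2 of 21 epicardium and fibroblast genes were called higher. Of the collagens this was 1 of 55, and of the atrioventricular canal and outflow list 1 of 15. Each of those calls was lost without either 48 hpf library, which left 0 called in each list, as were those of TPM2 and mbpa (adjusted p = 0.115 and 0.315 for TPM2, 0.119 and 0.192 for mbpa). Without 72 hpf replicate 2, the higher library of both genes, TPM2 (adjusted p = 0.156) and ALDH1A2 (0.216) were not called either, while 6 collagens were called without 72 hpf replicate 1.

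A few genes of inflammation rose, and edgeR called 0 genes of the leukocyte list with all 12 libraries. nfkbiaa, the inhibitor that NF-kappaB signalling induces, rose from 38.9 and 18.4 to 286 and 235 CPM (3.19 ± 0.42, adjusted p = 0.00231) and stood at 5.07 and 5.41 CPM in the GFP-negative libraries. Outside that list, MYO1F, a myosin of leukocytes, rose from 15.9 and 10.1 to 64.8 and 51.1 CPM (2.16 ± 0.37), and FGR, a kinase of myeloid cells, from 4.85 and 3.11 to 15.8 and 19.2 CPM (2.14 ± 0.43). Without 48 hpf replicate 2 MYO1F and FGR were not called (adjusted p = 0.21 and 0.359), nor was FGR without 48 hpf replicate 1 or 72 hpf replicate 2. In the interferon and inflammation list 2 of 16 were called higher, nfkbiaa and c3a.1, against 0.261% of all genes. il1b, the cytokine interleukin-1 beta, stood at 4.72 and 1.68 against 27.7 and 30.2 CPM and did not pass the test (3.19 ± 1.68, adjusted p = 0.505). Of 27 leukocyte genes 0 were called by edgeR, 7 had an unadjusted p under 0.05, all higher, and DESeq2 called 3 and limma 0. Without 48 hpf replicate 1 edgeR called 2 of them higher, and without 72 hpf replicate 1 it called 1 lower. Their summed level was 2336 and 2102 CPM at 48 hpf and 3514 and 1821 CPM at 72 hpf, so by this sum the 72 hpf libraries lay on both sides of the 48 hpf pair. Much of the sum was csf1ra, also in the xanthophore list, at 1348 and 1756 against 1632 and 938 CPM. Other members lay above in both 72 hpf libraries, SPI1 at 22.0 and 5.19 against 44.9 and 45.9 CPM. LCP1 stood at 116 and 51.8 against 271 and 176 CPM, while CORO1A and others overlapped. Immediate early genes, which respond within minutes to stimulation and to cell handling, summed to 4597 and 1833 CPM at 48 hpf and to 4515 and 4575 CPM at 72 hpf. Of these 35 genes 0 were called by edgeR, 3 had an unadjusted p under 0.05, all higher, and DESeq2 called 1 and limma 0.

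Genes of purine, pteridine and redox metabolism stood out among those lower at 72 hpf. prdx1 (ENSDARG00000058734), a peroxiredoxin that removes peroxides, fell from 814 and 735 CPM to 79.1 and 73.7 CPM (−3.34 ± 0.33, adjusted p = 0.000286). ATIC, which carries out the last steps of purine synthesis, fell from 1029 and 1102 CPM to 256 and 122.7 CPM (−2.49 ± 0.41, adjusted p = 0.0118). QDPR (ENSDARG00000040190), which regenerates tetrahydrobiopterin, a pteridine cofactor, fell from 259 and 297 CPM to 49.9 and 27.0 CPM (−2.86 ± 0.41, adjusted p = 0.00554). The 3 genes kept their calls without any one library. pnp4a, a purine nucleoside phosphorylase used as a marker of iridophores, the reflective pigment cells, fell from 103 and 77.1 CPM to 14.8 and 19.3 CPM (−2.40 ± 0.48), and its call was lost without any one of the 4 libraries. GCLM, a subunit of the enzyme that starts glutathione synthesis, fell from 26.8 and 37.5 CPM to 1.97 and 0.478 CPM (−4.73 ± 0.87), and PGD, of the pentose phosphate pathway, from 273 and 313 CPM to 88.8 and 68.8 CPM (−1.89 ± 0.30). Both lost the call without 48 hpf replicate 2 and without 72 hpf replicate 2.

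The other members of these pathways did not pass the test. In lists written after the called genes had been seen, 2 of 14 purine genes, 1 of 10 pteridine genes and 3 of 17 pentose phosphate and glutathione genes were called lower and 0 higher, against 0.227% of all genes. These lists hold genes already known to be called, so neither the calls nor the positions given next can support a shared change. Both 72 hpf libraries lay below both 48 hpf libraries in 10 of 14, 9 of 10 and 8 of 17, against 23.1% of all tested genes, and above them in 1 of 14, 0 of 10 and 4 of 17, against 17.5%. TKT, transketolase of the pentose phosphate pathway, was among the last, at 6.93 and 5.38 against 20.9 and 24.1 CPM (adjusted p = 0.419). PAICS, an earlier step of purine synthesis, stood at 2144 and 2067 CPM against 805 and 430 CPM (−1.77 ± 0.40, adjusted p = 0.071), and GMPS, which makes GMP, at 1856 and 2361 against 773 and 475 CPM (−1.76 ± 0.37, adjusted p = 0.0575). PTS, the second enzyme of pteridine synthesis, stood at 3077 and 4160 against 968 and 661 CPM (−2.15 ± 0.61, adjusted p = 0.199). In the GFP-negative libraries of 48 and 72 hpf levels were far lower, PAICS at 39.1 and 47.2 CPM and PTS at 2.95 and 8.71 CPM.

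Xanthophore genes lay lower at 72 hpf with few calls, and the other pigment cell lists were mixed. Of 26 xanthophore genes 22 were below in both 72 hpf libraries and 0 above (over all tested genes 23.1 and 17.5%), with a median log2 fold change of −1.29. edgeR called ATIC alone, 15 had an unadjusted p under 0.05, all lower, and DESeq2 called 8 and limma 3. gch2, the GTP cyclohydrolase that starts pteridine pigment synthesis, stood at 17869 and 17390 CPM against 8407 and 4641 CPM (−1.43 ± 0.49, adjusted p = 0.279). aox5, an aldehyde oxidase of xanthophores, stood at 4712 and 5723 against 2425 and 1354 CPM (−1.46 ± 0.54, adjusted p = 0.317). csf1ra, a receptor of xanthophores and macrophages, stood at 1348 and 1756 against 1632 and 938 CPM, with overlapping stages. Replicate 2 of 72 hpf was above replicate 1 in only 1 of the 26 genes, with a median log2 ratio of −0.76. Of 14 iridophore genes 6 were below in both 72 hpf libraries and 1 above (over all tested genes 23.1 and 17.5%), and edgeR called 2 lower, ATIC and pnp4a. Of 12 melanophore genes edgeR called 0, 5 were below in both libraries and 3 above (over all tested genes 23.1 and 17.5%), and 4 overlapped. TYR, the tyrosinase of melanin synthesis, stood at 708 and 969 against 295 and 243 CPM (−1.64 ± 0.45, adjusted p = 0.142). DCT, a later enzyme of the same pathway, stood higher at 72 hpf but far lower in level, at 3.27 and 1.28 against 4.70 and 19.6 CPM (adjusted p = 0.482). For melanophore genes 4 had an unadjusted p under 0.05, all lower, DESeq2 called 4 and limma 0. Without 72 hpf replicate 1 the xanthophore calls were 4, the iridophore calls 4 and the melanophore calls 3, all lower.

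Other enzymes and transporters with high levels at 48 hpf were called lower too. fbp1a, fructose bisphosphatase of glucose synthesis, fell from 341 and 354 CPM to 74.0 and 90 CPM at 72 hpf (−2.08 ± 0.34). CYB561A3, a ferric reductase of the cytochrome b561 family, fell from 142 and 141 CPM to 26.02 and 21.6 CPM (−2.57 ± 0.45), and ATP11A, a flippase that moves phospholipids across the plasma membrane, from 704 and 900.3 CPM to 211 and 168 CPM (−2.08 ± 0.33). PGM2, a phosphopentomutase, fell from 320.4 and 418 CPM to 107 and 73.4 CPM (−2.04 ± 0.35), and tdh, threonine dehydrogenase, from 663 and 473 CPM to 166 and 174 CPM (−1.74 ± 0.31). All 5 had lower levels in the GFP-negative fraction at 48 hpf, where they ranged from 0 for CYB561A3 to 139 CPM for tdh. fbp1a remained called without any one library. Without 48 hpf replicate 2 the adjusted p was 0.0611 for ATP11A, 0.0612 for CYB561A3 and 0.0988 for PGM2, and without 72 hpf replicate 2 it was 0.082 for CYB561A3, 0.0712 for PGM2 and 0.0584 for tdh, which also lost its call without 48 hpf replicate 1 (adjusted p = 0.122).

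Embryonic globin genes fell, as did some genes of heme synthesis, and globin levels were lower at 72 hpf in the GFP-negative fraction as well. hbae1.1, hbae1.2 and hbae1.3 encode embryonic alpha globins and are near copies, so their reads may be divided uncertainly. hbae1.3 fell from 395 and 253 CPM to 74.8 and 82.2 CPM (−2.04 ± 0.38, adjusted p = 0.0309), and hbae1.1 from 271 and 186 CPM to 66.2 and 54.0 CPM (−1.93 ± 0.35, adjusted p = 0.026). hbae1.2 fell from 648 and 427 CPM to 120 and 163 CPM (−1.93 ± 0.40, adjusted p = 0.0485), a call that was lost without 48 hpf replicate 1 (adjusted p = 0.175) and without either 72 hpf library (0.09 and 0.0812). In the GFP-negative libraries the levels were 3231 and 212 CPM for hbae1.3, 2443 and 177 CPM for hbae1.1 and 5532 and 409 CPM for hbae1.2. Of 17 erythrocyte genes 12 were below in both libraries (over all tested genes 23.1%). The summed level of the list was 1907 and 1487 CPM at 48 hpf and 723 and 777 CPM at 72 hpf. Against 0.227% of all genes, 2 of the 17 were called lower, hbae1.1 and hbae1.3. Those calls went to 0 without 48 hpf replicate 1 and without 72 hpf replicate 2, and to 3 without 72 hpf replicate 1. The median log2 ratio of the list in the GFP-negative fraction was −3.01, and the part of blood cell RNA in the sorted cells was not tested. ALAS1, the entry enzyme of heme synthesis outside red cells, fell from 668 and 761 CPM to 318 and 210.3 CPM (−1.44 ± 0.29, adjusted p = 0.043), and uros, a later enzyme of the pathway, from 7.37 and 6.37 CPM to no count in either library, at least 135-fold lower. The uros call remained without any one library, and the ALAS1 call was lost without either 48 hpf library and without 72 hpf replicate 2.

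A few neural, Notch and adhesion genes were also lower. ELAVL3, an RNA-binding protein of young neurons, fell from 75.9 and 99.5 CPM to 26.7 and 19.2 CPM (−1.94 ± 0.37, adjusted p = 0.034), with 563 and 214 CPM in the GFP-negative libraries. her4.2, a Notch target of neural progenitors, fell from 311 and 181 CPM to 33.3 and 68.1 CPM (−2.28 ± 0.43), with 415 and 101 CPM in the GFP-negative libraries. crb2a, a Crumbs polarity protein, fell from 46.2 and 31.9 CPM to 1.68 and 2.39 CPM (−4.25 ± 0.74), and LAMA1, a laminin chain of basement membranes, from 69.8 and 70.2 CPM to 16.5 and 14.2 CPM (−2.19 ± 0.43). In all 4 the stages were well apart. ELAVL3 and LAMA1 lost the call without either 48 hpf library (adjusted p = 0.0868 and 0.315 for ELAVL3, 0.0762 and 0.109 for LAMA1) and without 72 hpf replicate 2, her4.2 without 48 hpf replicate 1 (adjusted p = 0.172) or 72 hpf replicate 1 (0.0523), and crb2a without 48 hpf replicate 1 (0.0601) or either 72 hpf library (0.0759 and 0.118). EGFL7, a secreted protein of endothelium, fell from 7.68 and 5.48 CPM to 0.336 and 0 CPM (−5.40 ± 0.97, and adjusted p = 0.117 and 0.109 without either 48 hpf library), with 7.84 and 13.6 CPM in the GFP-negative libraries. Of the 22 neural genes 1 was called lower, and of the 22 endothelium and endocardium genes 1 was called lower. Neither list fell as a whole. At an unadjusted p under 0.05, 6 endothelium and endocardium genes were higher and 2 lower, and DESeq2 called 4 higher and 2 lower. stab1 stood at 41.1 and 34.2 against 102 and 93.3 CPM, without a call. Of the neural genes 1 was higher and 1 lower at that level. SNAP25 (ENSDARG00000058117) stood at 7.62 and 9.18 against 34.4 and 41.3 CPM, without a call. ZC3H12B, a CCCH zinc finger protein, fell from 11.3 and 23.6 CPM to 0 and 0.0281 CPM (adjusted p = 0.000286), and DHX33, an RNA helicase, from 6.74 and 12.9 CPM to no count in either library, at least 202-fold lower. Both were present in the GFP-negative library of 72 hpf, at 24.4 and 28.5 CPM.

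In the cardiac sarcomere list edgeR called 0 of 36 genes. Of these 19 were below in both 72 hpf libraries and 4 above (over all tested genes 23.1 and 17.5%), with a median log2 fold change of −0.84, while 7 had an unadjusted p under 0.05, all lower, and DESeq2 called 2 and limma 0. MYL7, the atrial regulatory light chain in mammals and a pan-cardiac one in zebrafish, stood at 266 and 173 CPM against 128 and 38.0 CPM (−1.41 ± 1.11, adjusted p = 0.653). cmlc1, a cardiac light chain, stood at 494 and 340 against 156 and 66.8 CPM (−1.91 ± 0.90), and MYH7, given above, had a log2 fold change of −2.37 ± 1.18 (adjusted p = 0.484). The symbol of the atrial myosin heavy chain is carried by 2 IDs, and an upper-case symbol can stand for a paralog. Which of the 2 encodes the atrial chain cannot be told from the symbols. MYH6 (ENSDARG00000079564) stood at 1070 and 943 against 183 and 123.2 CPM (−2.72 ± 1.04, adjusted p = 0.389), and myh6 (ENSDARG00000090637) at 248 and 310 against 231 and 90.6 CPM (−0.79 ± 0.96). In these 5 IDs the 72 hpf libraries lay below the 48 hpf libraries, and replicate 2 was below replicate 1. tpm4a, a tropomyosin, stood at 328 and 273 against 113 and 95.7 CPM and came closest to the threshold (−1.52 ± 0.35, adjusted p = 0.07). TTN, titin, is carried by 2 IDs, and the more abundant stood at 2762 and 3114 against 1886 and 3952 CPM, with the 72 hpf libraries on both sides of the 48 hpf pair.

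Of the cardiac transcription factors edgeR called 0. Of 31 genes 17 were below in both 72 hpf libraries and 3 above (over all tested genes 23.1 and 17.5%), with a median of −0.79, while 8 had an unadjusted p under 0.05, all lower, and DESeq2 called 3 and limma 0. Without 72 hpf replicate 1 edgeR called 1, lower. TBX20, a T-box factor of the chambers, stood at 36.8 and 62.5 CPM against 13.7 and 12.2 CPM (−1.94 ± 0.47, adjusted p = 0.0861). Among the GATA factors, which switch on cardiac genes, gata4 stood at 36.6 and 59.6 against 13.8 and 13.8 CPM (−1.80 ± 0.58, adjusted p = 0.228), GATA5 at 60.1 and 111 against 19.9 and 33.7 CPM (−1.68 ± 0.48), and GATA6 at 35.7 and 72.0 against 13.4 and 7.29 CPM (−2.38 ± 0.59, adjusted p = 0.102). NKX2-5, a homeobox factor of early cardiomyocytes, stood at 17.9 and 14.9 against 3.36 and 0 CPM (−3.30 ± 2.19, adjusted p = 0.566). HAND2 stood at 94.5 and 110 against 42.6 and 41.4 CPM (−1.28 ± 0.96) and TBX5 at 35.2 and 41.6 against 13.9 and 19.6 CPM (−1.19 ± 0.87). MEF2C, in 2 IDs, had log2 fold changes of −0.34 ± 0.29 and −0.06 ± 0.36, and HEY2, a repressor of the ventricle, stood at 6.80 and 4.99 against 16.4 and 9.48 CPM (1.13 ± 0.99). The natriuretic peptide nppa stood at 111 and 63.9 against 57.1 and 12.3 CPM (−1.33 ± 1.14, adjusted p = 0.695), and nppb at 12.4 and 5.23 against 0 and 4.30 CPM. Of 23 calcium handling and channel genes 0 were called by edgeR, 2 had an unadjusted p under 0.05, and DESeq2 called 2 and limma 0. Over all 23767 genes tested the last 3 counts were 2716, 1181 and 342.

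**Figure D4:**
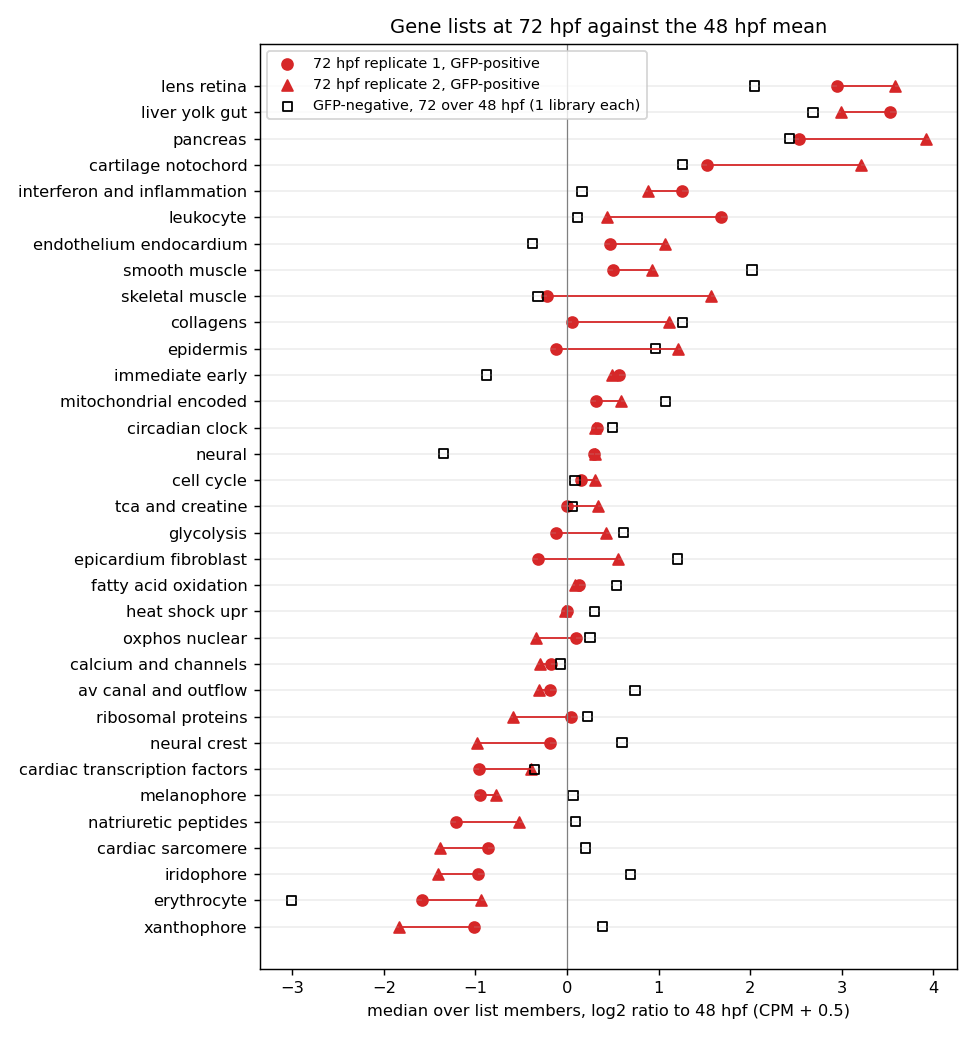
Median log2 ratio to the 48 hpf mean (CPM + 0.5) for each gene list, for 72 hpf replicate 1 (red circle) and replicate 2 (red triangle). It is taken over tested members averaging 1 CPM or more over the 4 libraries. Open squares are the median ratio of the single GFP-negative libraries of 72 and 48 hpf, over all tested members. The lens and retina, liver and pancreas lists lie farthest to the right, xanthophore genes lie at −1.02 and −1.84, and the bars between the replicates are long for skeletal muscle (−0.22 and 1.57), cartilage (1.53 and 3.21) and epidermis (−0.12 and 1.21).

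The difference between the 72 hpf libraries followed tissue lists. Skeletal muscle genes were higher in replicate 2 in 29 of 32, by a median log2 ratio of 1.75, and their summed level was 4822 CPM in replicate 1 and 16326 CPM in replicate 2, on both sides of the 6405 and 5881 CPM of 48 hpf. myhz1.2, a fast myosin heavy chain, stood at 282 and 1750 CPM in the 72 hpf libraries and at 704 and 759 CPM at 48 hpf. Epidermis genes were higher in replicate 2 in 20 of 24, by a median of 1.78, with the type I keratin cyt1 at 287 and 1692 CPM against 1309 and 1505 CPM at 48 hpf. For the skeletal muscle sum, myhz1.2 and cyt1 the mean of the 72 hpf libraries therefore rests on libraries with opposite positions relative to 48 hpf. Other members of both lists, smyhc1 and krt5 among them, were above both 48 hpf libraries in both 72 hpf libraries, and some were below. In these lists 1 skeletal muscle gene, pvalb4, a parvalbumin, was called (19.6 and 10.2 against 51.2 and 124 CPM, 2.56 ± 0.45, adjusted p = 0.0236), and 0 epidermis genes by edgeR, with 3 at an unadjusted p under 0.05, and 1 each by DESeq2 and limma. The pvalb4 call was lost without 48 hpf replicate 2 and without 72 hpf replicate 2, and 6 skeletal muscle genes were called without 72 hpf replicate 1.

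Cartilage genes were above 48 hpf in both libraries, but to different extents. Of 21 cartilage and notochord genes 16 were above in both 72 hpf libraries and 2 below (over all tested genes 17.5 and 23.1%), with a median log2 fold change of 2.703, and 18 were higher in replicate 2 than in replicate 1. The summed level was 843 and 1070 CPM at 48 hpf and 2546 and 8966 CPM at 72 hpf, and 5370 and 12843 CPM in the GFP-negative libraries. The higher of the 2 COL2A1 IDs, the main collagen of cartilage, stood at 196 and 328 CPM against 1038 and 4277 CPM (3.34 ± 0.93, adjusted p = 0.224). acana, aggrecan, stood at 2.14 and 5.68 against 64.1 and 89.9 CPM (4.29 ± 0.99, adjusted p = 0.108), and MATN1, a matrilin of cartilage, at 0 and 4.94 against 247 and 742 CPM (7.61 ± 1.94, adjusted p = 0.238). edgeR called 0 of the list, 13 were higher and 1 lower at an unadjusted p under 0.05, and DESeq2 called 10 and limma 3, all higher. col1a1a, a chain of type I collagen, stood at 728 and 651 CPM against 831 and 1810 CPM (0.94 ± 0.48).

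Ribosomal protein, leukocyte, liver and xanthophore genes lay the other way. Ribosomal protein genes were higher in replicate 2 in only 7 of 84, by a median log2 ratio of −0.57, RPL17 standing at 222 CPM in replicate 1 and 43.2 CPM in replicate 2 against 187 and 157 CPM at 48 hpf. Leukocyte genes had a median ratio of −0.67 and liver, yolk and gut genes of −0.62. rn7sk, a small nuclear RNA named because it was among the genes that differed most between these libraries, stood at 643 and 129 CPM against 1015 and 377 CPM at 48 hpf. Of the 62 genes called higher, 27 were higher in replicate 2 than in replicate 1, and of the 54 called lower 25 were lower in replicate 2.

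edgeR made no call in the cell cycle and oxidative phosphorylation lists with all 12 libraries. Over all 23767 genes tested, 2716 had an unadjusted p under 0.05, DESeq2 called 1181 and limma 342. Of 56 cell cycle genes 0 were called by edgeR (median 0.16), with 5 higher and 2 lower at an unadjusted p under 0.05, and DESeq2 called 4 and limma 0. mki67, a marker of dividing cells, stood at 136 and 166 against 112 and 174 CPM. Of 106 nuclear oxidative phosphorylation genes, assembly factors included, 0 were called by edgeR (median −0.04), 7 had an unadjusted p under 0.05, and DESeq2 called 1 and limma 0. Of the 13 mitochondrially encoded genes 9 were above in both 72 hpf libraries and 0 below (median 0.46), against 17.5 and 23.1% of all tested genes, with MT-CO1 at 6420 and 6595 against 9893 and 11001 CPM (0.68 ± 0.34, adjusted p = 0.457). edgeR called 0 of these 13, 2 had an unadjusted p under 0.05, and DESeq2 and limma called 0. Of the smooth muscle, glycolysis, fatty acid oxidation, heat shock and ribosomal protein lists edgeR also called 0, of 13, 36, 33, 29 and 84 genes, with 2, 12, 4, 5 and 9 at an unadjusted p under 0.05, and DESeq2 called 1, 1, 1, 2 and 1 and limma 0, 0, 0, 1 and 0. Without 72 hpf replicate 1 edgeR called 3 higher and 3 lower cell cycle genes, 6 lower oxidative phosphorylation genes, 4 lower ribosomal protein genes, 1 higher and 4 lower glycolysis genes, 1 higher and 2 lower heat shock genes and 1 higher smooth muscle gene, and without 72 hpf replicate 2 it called 2 lower glycolysis genes. nfil3-6, a repressor tied to the circadian clock, was the single call among 29 clock genes (6.99 and 1.73 against 37.9 and 27.4 CPM, 2.91 ± 0.57, adjusted p = 0.0367, or 0.217 without 48 hpf replicate 2).

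**Figure D5:**
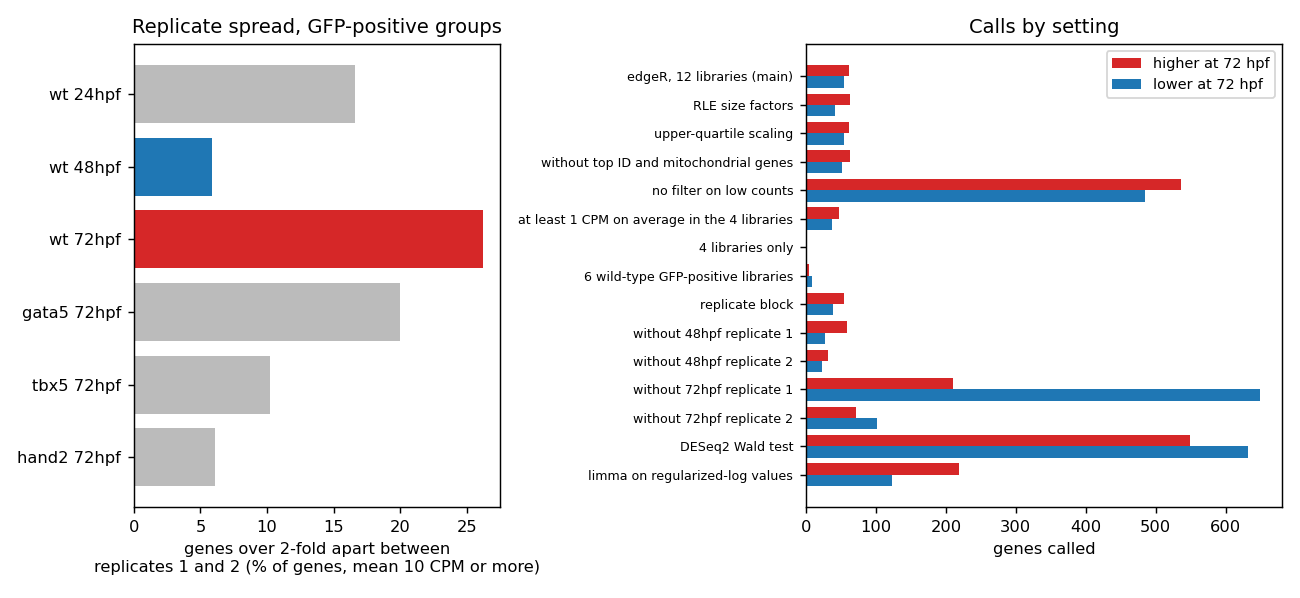
Left, share of genes averaging 10 CPM or more that stood over 2-fold apart between replicates 1 and 2 of each GFP-positive group, in percent, from 5.85% in wild type at 48 hpf (blue) to 26.2% in wild type at 72 hpf (red). Right, genes called higher (red) and lower (blue) at 72 hpf under each setting, from 0 with the 4 libraries alone to 1181 with DESeq2, against 116 in the edgeR fit of 12 libraries.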

How the data were processed

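The authors deposited unnormalized counts, whole-number reads for each Ensembl gene and library, and a second table of log2 values (regularized log, for which the submitters' processing notes name DESeq2). The notes also give Trimmomatic 0.36, SAMtools 1.4 and STAR 2.5, and GRCz10 as the build. The labels name a Trizol-based extraction with DNase and the SMARTer low input kit. The sources used here do not state the counting tool, annotation or strand setting, so reads of antisense, overlapping or paralogous genes cannot be assigned with certainty.

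Counts of the 12 GFP-positive libraries were fitted as 6 groups with edgeR 4.0.16 in R 4.3.3 (TMM, filterByExpr with minimum count 10 and minimum total 15, robust quasi-likelihood F test, two-sided, Benjamini-Hochberg). There were 23767 genes tested, 6 residual degrees of freedom and a common biological coefficient of variation of 0.89. GFP-negative values and list medians are descriptions. Log2 ratios between libraries used a pseudocount of 0.5 CPM. List medians of ratios of 1 GFP-positive library to another or to the 48 hpf mean used members averaging 1 CPM or more over the 4 libraries. DESeq2 1.42.0, limma 3.58.1 on the deposited log2 values, other scalings and filters, and the omission of each library were alternatives. The fit was tested on simulated data.

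Symbols were found for 24555 of 28298 IDs. An upper-case symbol can stand for several paralogs. There are 33 gene lists, and 7 more were written after the called genes had been seen. The members and lists were chosen with earlier results of these data known. Of the list members 102 were not matched, and kinase and binding-protein genes whose symbols resemble those of ribosomal proteins were kept out of that list. Named genes are the 12 largest called changes in each direction (mean of at least 10 CPM, no overlap, proper symbol), the called list members with the largest change, preset cardiac and pigment genes, and the genes that differed most between the 72 hpf libraries. Only part of them are printed, and list members and other called genes were added after their values were seen. Replicate numbers were not taken as pairs. Promoter sequences were not used here. The result of 1 gene is not reported here.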

Additional observations from a re-analysis of the deposited data

How the results depend on the processing

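Of 894 pairs of a named gene and a setting, 711 kept the direction and the side of the threshold, 155 lost the call, 13 gained it and 15 changed sign. Upper-quartile scaling, RLE size factors and leaving out the most abundant ID with the mitochondrial genes gave 117, 105 and 115 calls, 114, 104 and 114 of them among the 116. With no filter on low counts 1022 genes were called (537 higher, 485 lower), with DESeq2 1181 (549 and 632) and with limma on the regularized-log values 342 (219 and 123), and these held 116, 116 and 108 of the 116. With the 4 libraries alone edgeR called 0 (0 and 0), although 2582 genes had an unadjusted p under 0.05, and with the 6 wild-type GFP-positive libraries it called 13 (5 and 8). Leaving out 1 library gave 55 to 859 calls, 32 to 210 higher and 23 to 649 lower. Of the liver, yolk and gut list, no filter, the 4 libraries, the 6 libraries, DESeq2 and limma called 22, 0, 1, 18 and 17 higher, and of the lens and retina list 9, 0, 0, 9 and 9. Leaving out 1 library gave 6 to 11 and 1 to 4. The causes were not tested.

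A fit with the replicate number as a block called 92 genes (54 higher, 38 lower), 89 of them among the 116. The labels give the pairing of replicate numbers no basis, replicate differences at 48 and 72 hpf correlated across genes with r = 0.113, and across all pairs of groups r ran from −0.162 to 0.215.

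The sign changed only for genes that were not called. With RLE and with DESeq2 the log2 fold change was 0.018 for MEF2C (ENSDARG00000029764), 0.003 for mki67 and 0.018 for PPARGC1A. Leaving out 1 library gave −0.223 to 0.116 for MEF2C, −0.413 to 0.221 for mki67, −0.461 to 0.295 for PPARGC1A, −0.71 to 0.093 for csf1ra, −1.801 to 0.139 for TNNT2 (ENSDARG00000020610) and −5.45 to 6.366 for TNNT2 (ENSDARG00000100694).

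With 2 libraries a stage, of which those at 72 hpf differ widely, a change that is not called may still be large.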
